A study of Arabidopsis thaliana with 3 samples.

Results

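The genes described here were cytoskeleton and IQD scaffold genes of the Arabidopsis root quiescent center (QC), those whose symbol begins with IQD, TUA, TUB, ACT, ADF, PRF, FH, MAP65-, MAP70-, ARP, VLN, FIM, TON or KIN and goes on with a number, or a letter and a number, and whose probe set on the array names only that gene. This found 25 of the 13356 genes that could be named, 15 IQD genes, 2 alpha tubulins, 5 beta tubulins, 2 actins and TON1B. Each had 1 probe set, and 0 of the 25 were of the types designed to bind several transcripts. No ADF, PRF, FH, MAP65-, MAP70-, ARP, VLN, FIM or KIN gene came through the rule (0 of each). The same spelling rule takes in 125 symbols of the RefSeq annotation, among them 33 IQD, 6 TUA, 9 TUB and 9 ACT genes, and those outside the 25 are not analysed here. The actins ACT2, ACT7 and ACT8, the main forms of vegetative tissue, were among those (0 of 3 measured), as was a probe set that TUA3 and TUA5 share.

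Microtubules and actin filaments give a plant cell its division planes, its growth axis and its transport tracks. Microtubules are polymers of alpha and beta tubulin, and actin filaments are polymers of actin. IQD proteins are plant scaffolds that bind calmodulin, the calcium sensor, through IQ motifs, and many of them sit on microtubules or at the plasma membrane. TON1 proteins act at the cell cortex, where they are needed for the preprophase band, the ring of microtubules that marks the division plane before mitosis. In the root tip, the QC holds a few cells that seldom divide and keep the adjoining stem cells from differentiating.

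The arrays came from a single group. Col-0 plants carrying WOX5:GFP, whose promoter is active in the QC, were harvested 5 days after stratification, their roots were turned into protoplasts, and GFP-positive cells were sorted, and their amplified RNA was hybridised to 1 ATH1 array for each of 3 samples. No other cell type, genotype or treatment was present, so each gene was compared with a background level on the same array, set at the 90th percentile of 6 genes known from pollen, anthers and the shoot tip. The labels do not say that the samples came from separate plants, so the scatter of these 3 arrays may be only technical. The p-values reflect that scatter over genes of similar mean value, and not how far a gene's own 3 values scatter. Values over background are means ± SD of the 3 arrays (n = 3). The median signal over 22810 probe sets was 76.9, 81.4 and 81.3 on replicates 1 to 3, and the background level lay at signals of 23.6, 44.9 and 48.98. That level differed between arrays by 0.58 log2 (SD, n = 3), a spread that enters every ± value below. Of 12 listed QC markers 4 were measured and all 4 lay above background by the test below, as did 45.3% of all genes tested. WOX5 itself is not analysed here. Markers of other cells were above background too, with 2 of 2 root hair genes, 3 of 3 vascular genes and 4 of 4 genes of dividing cells. Their lists held 9, 13 and 14 names. In the same order, summed signals of the measured genes ranged from 673 to 705, from 652 to 845 and from 589 to 818 over the arrays. The part of these markers' cells in the values below was not tested.

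Most of the cytoskeleton and IQD genes gave signal over the background level in the sorted cells. Of the 25 genes, 19 lay above background, 1 lay below it and the other 5 passed in neither direction, by limma with p-values adjusted over 13350 genes and a threshold of 0.05. Over all genes tested the shares were 45.3% above and 25.6% below, which became 50.9% and 12.2% at the panel's 75th percentile and 34.5% and 39.1% with the level raised by 1 log2. The median of the 25 genes was 2.81 log2 over background, against 0.62 for all genes tested. Of the 25 genes, 19 exceeded the level on each of the arrays, as did 50.7% of all genes tested. These were the same 19 genes, and the count uses the same values as the test, so it is no separate support. Probe sets differ in how strongly they bind, so the values that follow do not rank the genes by transcript number, and a gene under the level is not shown to be silent.

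**Figure D1:**
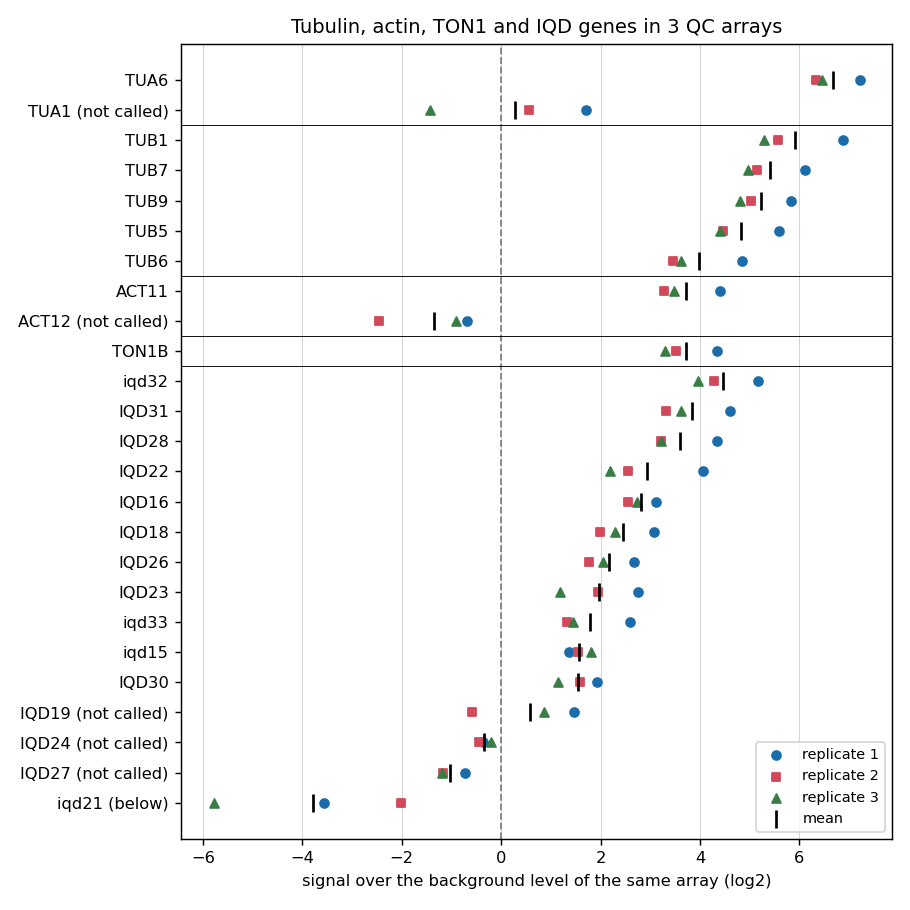
Signal over the background level of the same array (log2, horizontal axis) for the 25 genes, with a symbol for each replicate and a bar for the mean, ordered within alpha tubulins, beta tubulins, actins, TON1B and IQD genes. Of the IQD genes, 11 of 15 lie above 0 by the test, and iqd21 is the only gene called below.

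Of the 7 tubulins, the building blocks of microtubules, 6 lay above background. TUA6 (AT4G14960), an alpha tubulin often used to label microtubules in living cells, had signals of 3519, 3623 and 4316 on replicates 1 to 3, which put it at 6.67 ± 0.48 log2 over the level (limma adjusted p = 4.45e-26). The arrays lay within 1.23-fold of each other, with replicate 3 the highest. TUA1 (AT1G64740), an alpha tubulin known mainly from pollen, was not called, with signals of 77.1, 66.1 and 18.3. Its signal on replicate 3 was under the background level and the other values were over it, and the mean was 0.28 ± 1.59 (limma adjusted p = 0.662). Only bacterial controls as background, of the alternatives run, put it above (limma adjusted p = 0.00446). Its range between arrays was 2.08 log2, against a median range of 0.81 log2 over all genes tested. Genes called above background, a set without TUA1, had a median range of 0.44 log2, and 0.0496% of them ranged more widely than TUA1.

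Every beta tubulin measured (5 of 5) lay above background, and their median was 5.23 log2. TUB1 (AT1G75780), whose transcript is known to be abundant in roots, had signals of 2761, 2131 and 1916 and lay at 5.91 ± 0.84 (limma adjusted p = 4.53e-28). Replicate 1 was 1.44-fold above replicate 3, the widest gap among the beta tubulins. TUB7 (AT2G29550) lay at 5.41 ± 0.62, and its signals of 1631, 1588 and 1531 differed by no more than 1.07-fold. TUB9 (AT4G20890), a beta tubulin known from pollen, varied by at most 1.09-fold, with signals of 1342, 1466 and 1375 and a level of 5.23 ± 0.54 (limma adjusted p = 4.07e-28). It was far over the background level on every array.

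TUB5 (AT1G20010) had signals of 1140, 994 and 1041, at 4.83 ± 0.67 log2 over background. TUB6 (AT5G12250), whose transcript is known to fall in the cold, had signals of 680, 493 and 605 and lay at 3.98 ± 0.76 (limma adjusted p = 6.74e-23). Replicate 1 was the highest array for 4 of the 5 beta tubulins, and replicate 2 for TUB9. Over all genes above background, 32.4% were highest on replicate 1, 32.2% on replicate 2 and 35.4% on replicate 3.

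Of the 2 actins, 1 lay above background. ACT11 (AT3G12110), an actin known from ovules, pollen and other reproductive organs, had signals of 501, 433 and 549 and lay at 3.72 ± 0.61 log2 over the level (limma adjusted p = 7.14e-21). All 3 arrays were close to each other, within 1.27-fold. ACT12 (AT3G46520), an actin of late pollen, had signals of 14.6, 8.19 and 26.15, each under the background level of its array. It was not called at -1.35 ± 0.96 (limma adjusted p = 0.123), and 4 alternative settings called it below. Of the 13 genes listed as cytoskeleton genes of pollen, 3 were measured, TUB9 above background and TUA1 and ACT12 not called.

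TON1B (AT3G55005), a protein of the preprophase band whose near copy TON1A is not analysed here, had signals of 481, 515.5 and 483. It lay at 3.73 ± 0.55 log2 over background (limma adjusted p = 6.75e-21). The arrays differed by no more than 1.07-fold, and 96.0% of genes above background had a wider range.

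Of the 15 IQD scaffold genes, 11 lay above background, iqd21 lay below it and 3 were not called. The median of the family was 1.97 log2 over background. The genes with the highest values were iqd32, IQD31, IQD28 and IQD22. Signals of iqd32 (AT1G19870) were 842, 877 and 764, which gave 4.47 ± 0.62 (limma adjusted p = 5.05e-26) and a difference of at most 1.15-fold between arrays. IQD31 (AT1G74690) had signals of 572, 448 and 600 and lay at 3.85 ± 0.67. For IQD28 (AT1G14380) the signals were 480, 417 and 458, at 3.60 ± 0.65. Both genes were lowest on replicate 2, and iqd32, IQD31 and IQD28 were each more than 3 log2 over the level on every array.

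IQD22 (AT4G23060) stood apart from these by its spread, with signals of 394, 261 and 224 and a level of 2.93 ± 0.99 log2 over background (limma adjusted p = 8.73e-14). Replicate 1 was 1.76-fold above replicate 3. IQD16 (AT4G10640), found in genetic work as a gene of leaf and shoot shape, went the other way, with 204.8, 264.6 and 326.5, and lay at 2.81 ± 0.29. It was 1.59-fold higher on replicate 3 than on replicate 1, and without the background level its SD was wider, at 0.34 log2. IQD18 (AT1G01110, 197.6, 178.5 and 238.1) lay at 2.45 ± 0.56 and IQD26 (AT3G16490, 151, 153 and 202) at 2.17 ± 0.47, and both were highest on replicate 3. IQD23 (AT5G62070) had signals of 159, 174 and 112, lowest on replicate 3, and lay at 1.97 ± 0.78.

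The remaining IQD genes above background were nearer to the level. For iqd33 (AT5G35670) the signals were 143, 112 and 133, at 1.79 ± 0.71 log2 (limma adjusted p = 5.51e-05). IQD30 (AT1G18840) had 90.1, 134 and 108 and lay at 1.55 ± 0.40 (limma adjusted p = 0.000806). For iqd15 (AT3G49380) they were 60.9, 131 and 171, at 1.57 ± 0.22 (limma adjusted p = 0.000639). The small ± value of iqd15 understates its variation, because its signal was low on the array where the background level was low. Without that level its SD was 0.77 log2 and replicate 3 was 2.80-fold over replicate 1, and only 0.892% of genes above background ranged more widely. Leaving out replicate 2 or replicate 3 ended the call of iqd15 (limma adjusted p = 0.0727 and 0.0569), and leaving out replicate 2 ended that of IQD30 (limma adjusted p = 0.0835). With the level raised by 1 log2 the calls of iqd33, iqd15 and IQD30 ended (limma adjusted p = 0.0793, 0.222 and 0.243).

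The other 4 IQD genes were not above background. IQD19 (AT4G14750) had signals of 65.2, 29.7 and 88.6, over the level on replicates 1 and 3 and under it on replicate 2, and was not called at 0.58 ± 1.06 log2 (limma adjusted p = 0.323). Its call depended on the background chosen, since lower levels called it above, for example with pseudogenes as background (0.99 log2, limma adjusted p = 0.0196). IQD24 (AT5G07240, 18.2, 33.0 and 42.3) was under the level on each array at -0.34 ± 0.12, and IQD27 (AT1G51960, 14.3, 19.8 and 21.4) likewise at -1.03 ± 0.27. Neither was called (limma adjusted p = 0.646 and 0.215), and IQD27 was called below with the level raised by 1 log2 (limma adjusted p = 0.0121). Without the background level the SDs of IQD24 and IQD27 were wider, at 0.63 and 0.31 log2. The single gene called below was iqd21 (AT3G49260), at -3.79 ± 1.89 (limma adjusted p = 0.000891). Its signals were 1.98, 11.03 and 0.890, a 12.4-fold range among values that all lie in the lowest part of the arrays, at percentiles 10.1, 20.4 and 3.47.

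**Figure D2:**
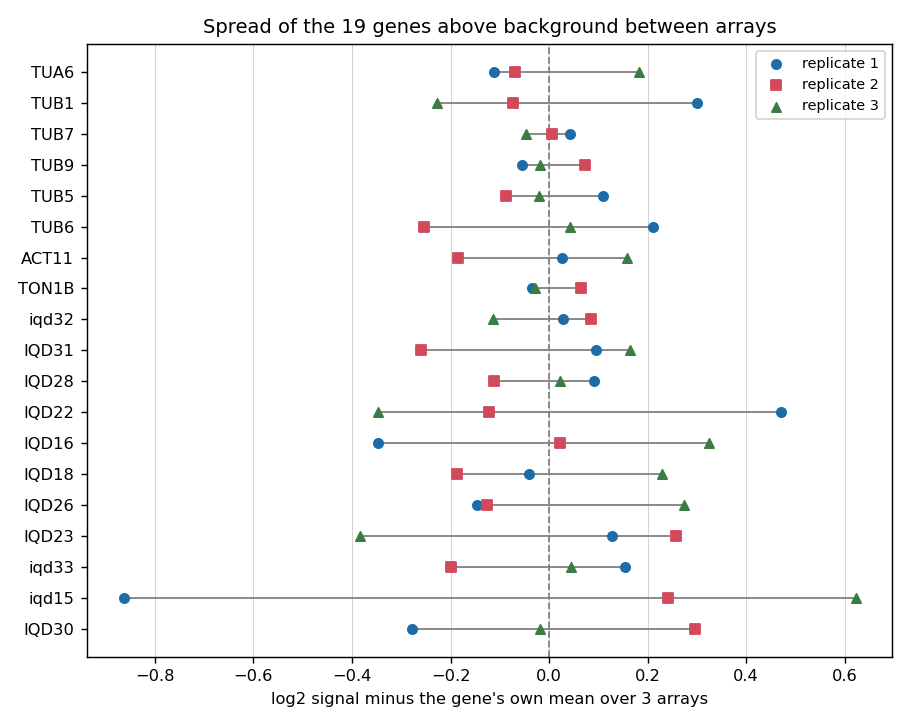
Log2 signal of each gene above background minus that gene's own mean over the arrays (horizontal axis), with a symbol for each replicate and a line over the range. The widest lines belong to iqd15 (1.49 log2) and IQD22 (0.82 log2), and those of TUB7 and TON1B (0.09 and 0.10 log2) are the narrowest.

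The arrays were then compared gene by gene. Among the 19 genes above background the median SD of log2 signal was 0.21, and 18 of 19 (94.7%) lay within 2-fold on all arrays. Among all genes above background these values were 0.23 and 93.2%. The genes with the widest ranges were all IQD genes, iqd15 (1.49 log2), IQD22 (0.82), IQD16 (0.67), IQD23 (0.64) and IQD30 (0.57), and each of them lay less than 3 log2 over background. The 8 genes of the group under that mark, all of them IQD genes, had a median range of 0.61 log2. Over all 3403 genes above background and under the mark it was 0.52. For the 11 genes of the group over the mark, the median range was 0.20, against 0.36 for all 2648 such genes. The 3 IQD genes among the 11 also had a median range of 0.20. Replicate 1 was the highest array for 7 of the 19 genes, replicate 2 for 5 and replicate 3 for 7. With 3 arrays of 1 group, a difference of 1 array from the others cannot be tested.

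**Figure D3:**
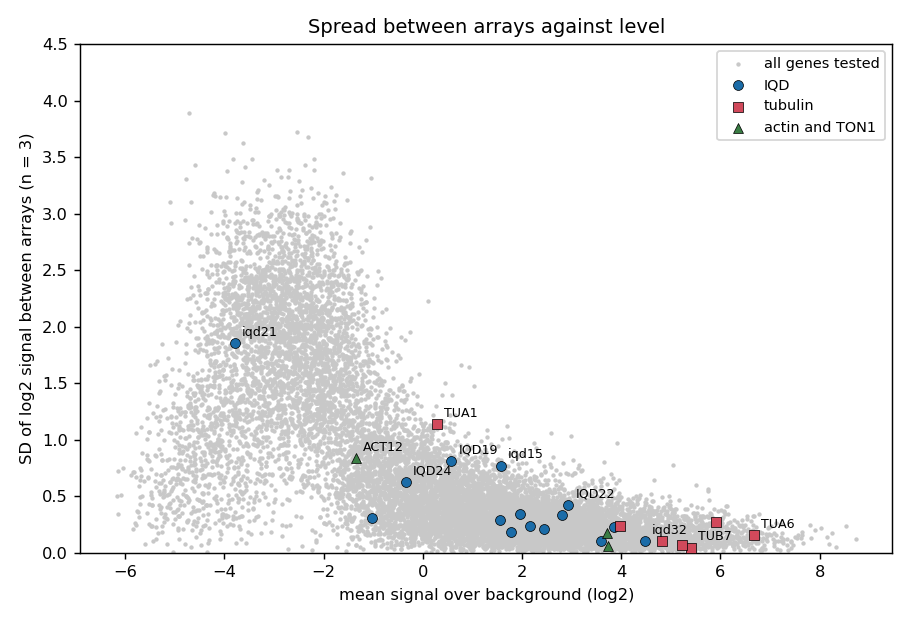
SD of log2 signal between the arrays (vertical axis, n = 3) against the mean signal over background (horizontal axis, log2) for all 13350 genes tested, with the IQD, tubulin, actin and TON1B genes marked. The 5 beta tubulins have a median SD of 0.10, while those of iqd15 and TUA1 are 0.77 and 1.14.

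Other genes of the cytoskeleton, taken from lists of names, were read in the same fit. The lists also held names with prefixes of the symbol rule, such as ADF and FH. Some myosins were listed under alternative spellings, so the names are not all distinct genes. Of 243 listed names 25 genes were measured, and 20 of them lay above background, 1 below and 4 were not called, and their median was 2.09 log2. As above, 45.3% of all genes tested lay above. The count above was 15 without replicate 2 and also 15 with the level raised by 1 log2, settings in which 38.2% and 34.5% of all genes lay above. None of the listed partners of IQD proteins, which include calmodulins and kinesin light chain-related proteins, was among the genes that could be named here (0 of 17).

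All 4 microtubule genes were above background. SPR1, which binds microtubule plus ends and keeps root growth straight, had signals of 1440, 1387 and 2003 and lay at 5.41 ± 0.49 log2 (limma adjusted p = 4.07e-28). WDL3 (AT3G23090), which bundles cortical microtubules, had signals of 1220, 1431 and 1325 and lay at 5.15 ± 0.49. ATMAP65-6, a member of the family that crosslinks microtubules, lay at 2.49 ± 0.54 with signals of 196, 176 and 264. KINESIN-12B, a motor of the phragmoplast, the structure that builds the new wall between daughter cells, had signals of 159, 119 and 211 and lay at 2.09 ± 0.67 (limma adjusted p = 7.06e-07). Replicate 3 was 1.78-fold over replicate 2 for this motor. KINESIN-13A, chosen after its values were seen because its symbol also begins with KIN, had signals of 450, 419 and 367 and lay at 3.46 ± 0.71.

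Among 21 further genes of actin filaments, 16 lay above background, NET3B lay below it and 4 were not called. The highest was WLIM2b, a LIM protein that bundles actin, with signals of 2583, 3375 and 2682 and a level of 6.26 ± 0.50 log2 (limma adjusted p = 1.89e-27). NET4B, of a plant family of actin-binding membrane proteins, had signals of 2137, 1867 and 2083, at 5.76 ± 0.64, and WLIM2a had 1888, 1686 and 1797, at 5.58 ± 0.64. At the other end, the class XI myosins XIE and XIJ were not called at -0.62 ± 0.75 and -0.97 ± 0.49, and the level raised by 1 log2 put both below (limma adjusted p = 0.0296 and 0.0139). NET3B had signals of 0.303, 0.793 and 11.8 and lay at -4.72 ± 2.32 (limma adjusted p = 7.17e-05).

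**Figure D4:**
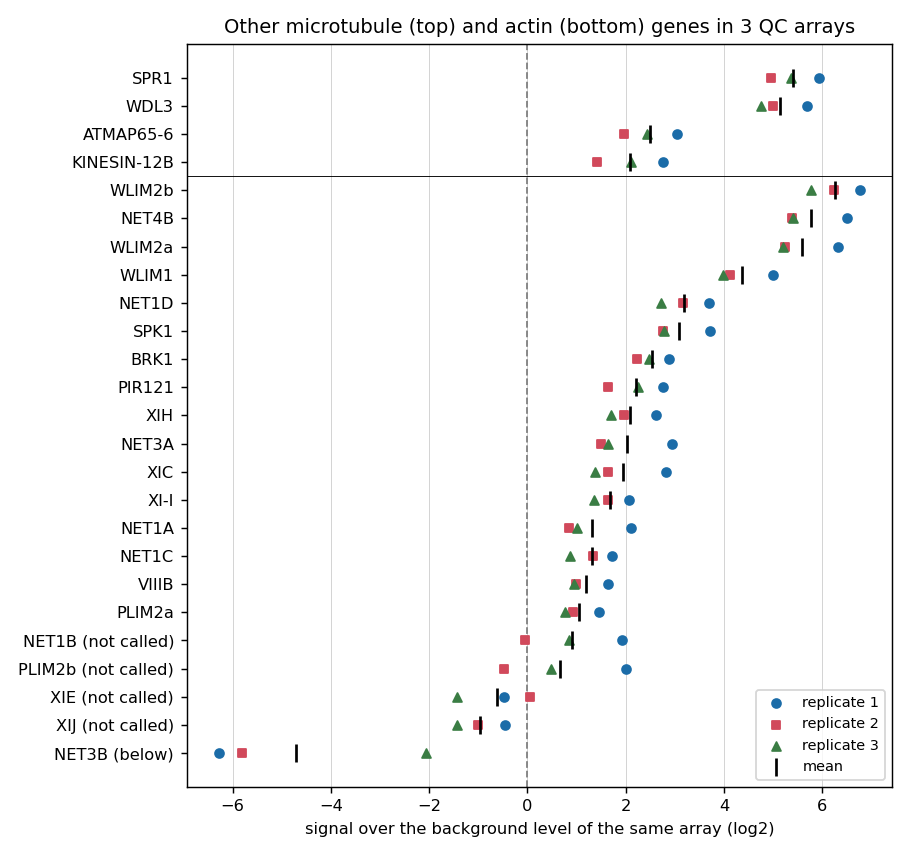
Signal over the background level of the same array (log2, horizontal axis) for 4 other microtubule genes, above the line, and 21 actin genes, below it, with a symbol for each replicate and a bar for the mean. All 4 microtubule genes and 16 of the actin genes are above 0 by the test.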

How the data were processed

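Sorted protoplasts of WOX5:GFP roots were measured on Affymetrix ATH1 arrays. The authors deposited the output of MAS5, an intensity on a linear scale per probe set and array; its version is not given in the sources used here. The trimmed mean was 250 on every array, so a change in total RNA cannot be seen. Arrays were compared in pairs for repeated deposits, and 0 probe sets had equal values.

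Signals were converted to log2. Gene names were read from the platform table and brought up to date with RefSeq (TAIR10.1, names only). Of 22810 probe sets, 13513 named 1 gene, 503 several and 8730 none, and 13436 of the first were matched to RefSeq. Probe sets of 1 gene were averaged. Upper and lower case were treated alike in the symbol rule, which added 4 genes (iqd15, iqd21, iqd32 and iqd33). Sequences were not used here.

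The background level was taken at the 90th percentile of the log2 signals of ANX1, ANX2, MGH3, A9, AMS and CLV3, which were left out of the tests. AMS was the highest of them on every array, at 5.60, 5.90 and 6.64 log2 on replicates 1 to 3. The level lay midway between AMS and the next highest gene. Without AMS the level was 3.37, 4.99 and 4.44 log2, against 4.56, 5.49 and 5.61 with it. The difference between log2 signal and the level with AMS was fitted with limma 3.58.1 under R 4.3.3 (intercept model, eBayes with trend, two-sided, Benjamini-Hochberg over 13350 genes). The prior degrees of freedom were infinite, so spreads came from the trend and very small p-values mean only a large distance from the level. The model was tested on simulated data in which the background level was the same on every array. That test does not cover a shift of the level between arrays. The genes, lists and tests were chosen with earlier results of these data known. All 25 genes were given values; the rule for families of over 8 asked for the highest 4, the lowest 3, the 5 widest ranges and those nearest the threshold, and the rest were added afterwards. Of the other lists the 3 highest and 3 lowest were named. THE1, a receptor kinase listed among actin genes in error, was left out. Alternatives covered the level, normalization, offset, variance model, probe sets, filter and replicates. The bacterial controls were the 27 probe sets of Bacillus genes.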

Additional observations from a re-analysis of the deposited data

Results flagged for a closer look

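The arrays carry control probe sets for Arabidopsis actin, which name no gene and entered no comparison above. They were singled out because all of them gave signal over the background level on every array. In the design without a revision mark, whose 3′ probe set is of a type that can bind several related transcripts, the 3′ end lay at 5.67 ± 0.69 log2 over background (SD, n = 3), the middle at 4.68 ± 0.49 and the 5′ end at 1.14 ± 0.96. In the revised design the 3′ end lay at 6.28 ± 0.68, the middle at 5.14 ± 0.49 and the 5′ end at 5.43 ± 0.67. The ratio of 3′ to 5′ signal was 22.5, 14.1 and 38.7 on replicates 1 to 3 in the design without the mark and 1.80, 1.56 and 2.10 in the revised one. In the design without the mark the 5′ signal on replicate 3 was 52.1, close to the background level of 48.98 on that array, so the ratio there has no firm size. In the revised design the ratio was lowest on replicate 2 and highest on replicate 3. Whether it moves with the values of the tubulin, actin or IQD genes was not tested.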

How the results depend on the processing

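The count of cytoskeleton and IQD genes above background was 19. It ranged from 16 with the level raised by 1 log2 to 21 with bacterial controls, and from 17 to 19 leaving out 1 replicate. Over all genes the share above was 45.3%, and became 34.5% at the raised level and 57.0% with bacterial controls. It was 45.1%, 38.2% and 41.7% without replicates 1, 2 and 3. The count below was 1. It became 2 at the panel's 95th percentile, with an offset of 16 and with no variance trend, 3 at the raised level, and 0 when genes under the level on all arrays were left out, since iqd21 was then not tested. Over all genes 63.9% of the called genes were above background. This share was 46.9% at the raised level, 74.98% with pseudogenes, 80.6% at the 75th percentile, 81.5% without AMS and 81.6% with bacterial controls. The number of all genes below was 3414, and became 5217 at the raised level, 1636 at the 75th percentile, 1560 without AMS, 1713 with bacterial controls, and 2269 and 2226 without replicate 2 and without replicate 3.

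Values that changed sign passed no test. For IQD19 the raised level gave -0.42 log2. TUA1 was at -0.13 for the 95th percentile and -0.72 for the raised level. Leaving out 1 replicate, it lay between -0.43 and 1.13. IQD24 was at 0.56 for the 75th percentile, 0.61 without AMS, 0.65 with bacterial controls and 0.069 with pseudogenes. XIE was at 0.29, 0.33 and 0.38 in the first 3 of these, XIJ at 0.031 with bacterial controls, and PLIM2b at -0.33 for the raised level. No paired analysis was possible because the study has a single group.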

Other observations

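LIM proteins bundle actin filaments, and those of Arabidopsis fall into a widely expressed class (WLIM) and a class known from pollen (PLIM). The genes of this family were chosen after their values were seen. WLIM1 had signals of 752.4, 779.5 and 767.9 on replicates 1 to 3, within 1.04-fold of each other, and lay at 4.36 ± 0.55 log2 over the level (SD of the 3 arrays, limma adjusted p = 1.98e-25). PLIM2a had signals of 65.0, 84.8 and 82.8 and lay at 1.05 ± 0.37 (limma adjusted p = 0.0414). Leaving out replicate 2 or replicate 3 ended that call (limma adjusted p = 0.236 and 0.137), as did the panel's 95th percentile, the level raised by 1 log2 and a fit with no variance trend (limma adjusted p = 0.195, 0.936 and 0.0931). PLIM2b, with 94.8, 32.4 and 68.1, was over the background level on replicates 1 and 3 and under it on replicate 2, and was not called at 0.67 ± 1.25 (limma adjusted p = 0.236). Its call depended on the background chosen, since several other choices called it above. With pseudogenes as background, for example, it lay at 1.08 log2 (limma adjusted p = 0.00817).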
